A study of Danio rerio with 15 samples.

Results

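The zebrafish genes hsf1, lrwd1, slc22a31 and supt3h were followed over 6 groups of embryos. They were chosen by their measured intensity, which was lower in embryos without Dicer than in wild type and still lower after miR-430 had been injected. The contrasts that chose them are therefore given as values with no test. Members were all probe sets whose only gene symbol in the platform annotation was 1 of these names. This gave 6 probe sets for the 4 genes, out of 15502 non-control probe sets and 8793 genes with a symbol of their own. Both hsf1 and lrwd1 had a pair of probe sets, called the first and the second here in the order of their platform identifiers, whereas slc22a31 and supt3h had 1 each. Values for a pair are given in that order. The files pair these probe sets with gene names but give no positions.

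RNA from 20 embryos per array, kept at 28 °C, was hybridised to 15 Affymetrix Zebrafish arrays after priming with oligo(dT), so transcripts with short poly(A) tails may be under-read. With 3 arrays each, the uninjected groups were wild type and MZdicer at 9 hours after fertilisation, and the groups that received miR-430 were called injected wild type and injected MZdicer. Untreated TLAB wild type was taken at the 16-cell stage on 2 arrays and at 50% epiboly on 1 array. MZdicer embryos are mutant for dicer in both the maternal contribution and the zygote. The labels name no dicer allele, give a strain only for the TLAB samples and state no age for injected embryos, which were injected at the one-cell stage. A control injection is not among the groups, so effects of injecting and of miR-430 cannot be told apart. Separate clutches are not stated for the replicates, so the spread behind each p-value is that of these samples and may be technical.

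Dicer cuts microRNA precursors into mature microRNAs, and in the early zebrafish embryo the miR-430 family is the most abundant of these and speeds the loss of many maternal transcripts. The 4 genes have unrelated known roles. The transcription factor Hsf1 binds heat shock elements and switches on chaperone genes under stress. Lrwd1, also called ORCA in human cells, binds the origin recognition complex and holds it on chromatin. Supt3h is the relative of yeast Spt3, a subunit of the SAGA co-activator complex that works with TATA-binding protein. The name slc22a31 places the last gene in the SLC22 family of membrane transporters for organic ions.

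Pearson correlations between arrays of a group ran from 0.983 to 0.996, and the 3 injected MZdicer arrays were the least alike. Equal values on a pair of arrays were found for no more than 0.0128% of probe sets. For dicer1 itself, deposited intensity ranged from 309 to 335 in MZdicer, from 265 to 307 in injected MZdicer, from 389 to 478 in wild type and from 510 to 543 in injected wild type. The sources used here do not place its probes relative to the mutation, so this is no check of the genotype. The ratio of the middle to the 5′ actin control probe sets was 15.4 to 20.4 in MZdicer, 12.1 to 12.7 in injected MZdicer, 8.70 to 10.9 in wild type and 8.86 to 10.4 in injected wild type. It was 4.12 to 4.19 at the 16-cell stage and 15.1 at 50% epiboly. The ratio of the 3′ to the 5′ GAPDH control probe sets was 0.146 to 0.177 in wild type and 0.186 to 0.227 after injection, against 0.184 to 0.209 in MZdicer and 0.134 to 0.167 after injection. At the 16-cell stage it was 0.313 to 0.429, and at 50% epiboly 0.225. These control ratios moved with genotype and stage. The GAPDH ratio moved in opposite directions on injection in the 2 genotypes with no overlap, and the actin ratio fell on injection of MZdicer. At the 16-cell stage the GAPDH ratio was the highest of the groups and the actin ratio the lowest, so they give no single reading of RNA quality. The part of RNA quality and of these ratios in the differences below was not tested. The part of the difference in each gene that comes from fewer cells of a type and from less RNA per cell cannot be told apart in whole embryos.

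All levels below are quantile-normalised intensities, and log2 differences were taken on log2(intensity + 16), which understates changes of dim probe sets. Levels are compared only within a probe set.

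For hsf1, the first probe set read 465, 472 and 441 in wild type, and 84.1, 64.4 and 59.1 in MZdicer. Injected MZdicer gave 209.9, 102 and 99.5, and injected wild type gave 395, 327 and 313. The 16-cell arrays read 194 and 184, and the 50% epiboly array read 482. Every wild-type array was above every array of the other 9-hour and injected groups. Injected MZdicer arrays were all above uninjected MZdicer, and replicate 1 was above the 16-cell arrays while the other two were below them, so that these groups overlapped. Group means were 459.5 ± 16.3 in wild type, 345 ± 43.8 in injected wild type, 137 ± 63.2 in injected MZdicer and 69.2 ± 13.2 in MZdicer (SD, n = 3 each).

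The second and dimmer hsf1 probe set showed a smaller range among the same groups. Wild type read 126, 119 and 114, injected wild type 81.8, 67.1 and 74.0, MZdicer 45.6, 41.6 and 47.0, and injected MZdicer 83.3, 43.1 and 51.0. Its highest values came from the 16-cell arrays, at 191 and 194, followed by 157 at 50% epiboly. The range of injected MZdicer overlapped those of MZdicer and of injected wild type, with replicate 1 above all injected wild-type arrays and replicate 2 within the MZdicer range. Means were 119.6 ± 6.20 in wild type, 74.3 ± 7.32 in injected wild type, 59.1 ± 21.3 in injected MZdicer and 44.8 ± 2.82 in MZdicer (SD, n = 3 each). The pair of hsf1 probe sets correlated at r = 0.659 over 15 arrays, against r = 0.987 for the pair of lrwd1 probe sets.

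The co-activator gene supt3h showed the smallest difference of the 4 genes between injected and uninjected MZdicer, at log2 0.06. Wild type read 466, 519 and 454, whereas MZdicer read 134, 146 and 147 and, after injection, 154, 136 and 159. Injected wild type read 304, 283 and 289, the 16-cell arrays 436 and 441, and the 50% epiboly array 619. The MZdicer and injected MZdicer arrays overlapped and lay below all others, while injected wild type stood between them and the remaining wild-type arrays with no overlap. Means were 479.7 ± 34.6 in wild type, 292 ± 10.9 in injected wild type, 149 ± 12.4 in injected MZdicer and 143 ± 7.22 in MZdicer (SD, n = 3 each).

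Both probe sets of lrwd1 gave the same order of the 6 groups, with no overlap between neighbours. On the first, wild type read 1029.6, 861 and 1232, injected wild type 417, 389.6 and 411, injected MZdicer 358, 246 and 269, and MZdicer 184, 198 and 169. It was near the bottom of the scale at the 16-cell stage, at 20.7 and 21.0, and reached 1939 at 50% epiboly. The second read 184, 161 and 160.0 in MZdicer, 402, 192 and 254 in injected MZdicer, 448, 547 and 423 in injected wild type and 813, 996 and 1226 in wild type. At the 16-cell stage it read 40.9 and 24.8, and at 50% epiboly 2059. Mean levels in wild type were 1041 ± 186 and 1012 ± 207, in injected wild type 406 ± 14.4 and 473 ± 65.7, in injected MZdicer 291 ± 59.2 and 283 ± 108, and in MZdicer 183 ± 14.5 and 169 ± 13.7 (SD, n = 3 each). Thus lrwd1 was the member with the widest range between stages. It was also the only one whose lowest mean of the 6 groups was at 16 cells, since for the others that mean was in MZdicer.

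For the transporter gene slc22a31, wild type read 1013, 803 and 1129.7, and after injection 847, 850.0 and 820.4. Uninjected MZdicer read 209.9, 227 and 205, and injected MZdicer read 215, 298 and 363. The 16-cell arrays gave 639.7 and 692, and the 50% epiboly array gave 1282. Wild type and injected wild type overlapped, as did MZdicer and injected MZdicer, and all arrays of the first pair lay above all of the second. Means were 982 ± 166 in wild type, 839 ± 16.4 in injected wild type, 292 ± 74.5 in injected MZdicer and 214 ± 11.5 in MZdicer (SD, n = 3 each). Injected MZdicer replicate 1, the highest of its group for hsf1 and lrwd1, was the lowest of its group for slc22a31.

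**Figure D1:**
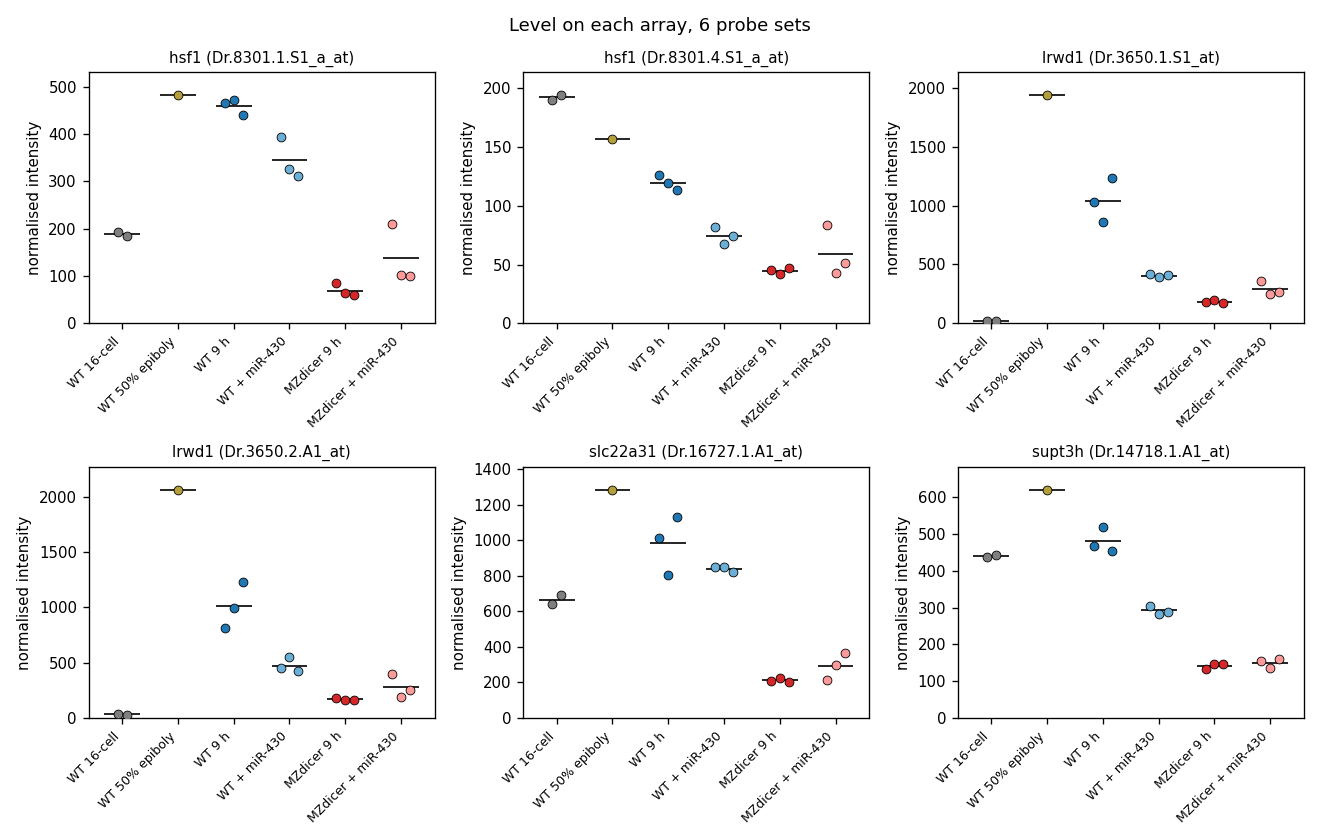
Normalised intensity of each of the 6 probe sets on every array, by group, with points for arrays and horizontal bars for group means. MZdicer arrays are the lowest of the 9-hour and injected groups on all 6 except where injected MZdicer overlaps them, and lrwd1 falls to between 20.7 and 40.9 at the 16-cell stage.

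The question that chose the genes was how far MZdicer fell below wild type and how much of the gap remained after injection. Relative to MZdicer, wild type was 6.64 times as high on the first hsf1 probe set and 2.67 times on the second. The ratio was 5.68 and 6.0 for the lrwd1 probe sets, 4.59 for slc22a31 and 3.36 for supt3h. Ordered from the most negative log2 difference over all 15502 probe sets, the members held ranks 12 and 154 (hsf1), 14 and 13 (lrwd1), 24 (slc22a31) and 44 (supt3h). These ranks describe how the genes were chosen and support nothing. Relative to injected MZdicer, wild type was still 3.35 and 2.02 times as high for hsf1, 3.58 times for each lrwd1 probe set, 3.36 times for slc22a31 and 3.21 times for supt3h. All wild-type arrays were above all MZdicer and all injected MZdicer arrays on 6 of 6 probe sets, an arrangement that 14.8% of all probe sets had. It too follows from how the genes were chosen, so nothing is read from that share.

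On the log2 scale, injected MZdicer made up 31.3% and 23.4% of the gap for the hsf1 probe sets, 25.4% and 25.8% for lrwd1, 18.7% for slc22a31 and 3.61% for supt3h. Replicate 1 of injected MZdicer decided part of these values. Without it the shares were 18.6% and 4.43% for hsf1, 19.1% and 14.7% for lrwd1, 27.9% for slc22a31 and 2.41% for supt3h. All injected MZdicer arrays were on fluidics station 1 and all uninjected ones on station 2, so injection and station cannot be told apart here. No uninjected wild-type array shared a recorded hybridisation date with either group, so the gap and that date cannot be told apart. In all, 274 of 15502 probe sets were at least 2-fold lower in MZdicer and past the test at an adjusted p of 0.05. Of these, 98 (35.8%) were also at least 2-fold lower and past the test in injected MZdicer. With no fold threshold, 25% of all probe sets were called lower in MZdicer and 15% in injected MZdicer. The 6 member probe sets were among the 274 and 5 among the 98, the dimmer hsf1 probe set being outside with a log2 difference of -0.89. The 274 recovered a median of 34.0% (quartiles 13.7% and 57.1%). By that measure supt3h lay below the lower quartile and the other 5 probe sets lay between the quartiles. Of the 274, 14.6% recovered less than supt3h and 46.0% less than the first hsf1 probe set. These counts and places rest on the groups that chose the members, so they describe the choice.

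**Figure D2:**
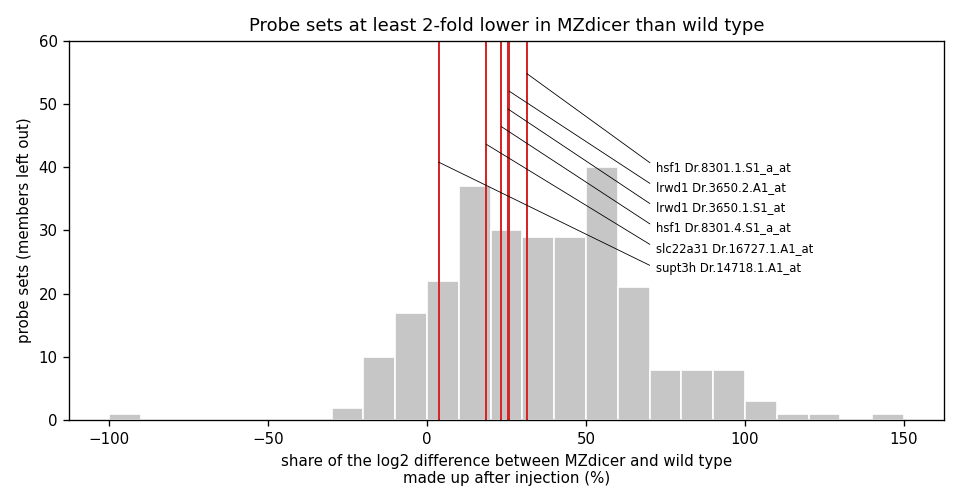
Share of the log2 difference between MZdicer and wild type that was made up in injected MZdicer (x axis, percent), for probe sets at least 2-fold lower in MZdicer, with members left out of the grey bars (y axis, number of probe sets) and drawn as red lines. The members lie between 3.61% and 31.3%, where many other probe sets also lie.

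Injected wild type against uninjected wild type is a comparison that did not choose the members, although it shares the uninjected wild-type arrays with those that did. Choosing genes that were high in those arrays favours lower values after injection, so the p-values and counts below are not free of the choice. Here lrwd1 and supt3h were lower after injection, and slc22a31 did not pass the test. On its first probe set lrwd1 fell by 1.31 ± 0.14 on the log2 scale (SE, limma adjusted p = 6.42e-05), and on the second it fell by 1.06 ± 0.21 (limma adjusted p = 0.00478). For supt3h the log2 difference was -0.68 ± 0.08 (SE, limma adjusted p = 0.000193). The result for hsf1 was mixed. Its dimmer probe set had a log2 difference of -0.59 ± 0.16 (limma adjusted p = 0.0251), a call that was lost on leaving out injected wild-type replicate 2 or 3 or any 1 of the 3 wild-type arrays (adjusted p from 0.0590 to 0.0900). Its brighter one had -0.41 ± 0.21 (limma adjusted p = 0.246), although its 3 injected arrays were all below the 3 uninjected ones, and it passed the test without injected MZdicer replicate 1, whose spread enters the fit (adjusted p = 0.0267). The difference for slc22a31 was -0.21 ± 0.15 (limma adjusted p = 0.424), and its arrays overlapped.

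In this comparison 4 of the 6 member probe sets were called lower, against 6.74% of all probe sets, while 7.3% of all probe sets were called higher. All 6 log2 differences were below 0, the direction that the shared wild-type arrays favour, and the median over all probe sets was -0.007. The share of all calls that were higher was 52.0%, and 40.8% with arrays centred on their medians. The injected wild-type arrays lay below all wild-type arrays on 5 of 6, where 16.8% of all probe sets did. On the same 5 they also lay above all MZdicer arrays, an order that 4.74% of all probe sets had. That order contains the contrast that chose the members, so nothing is read from it. As a share of the wild-type level, injected wild type kept 39.0% and 46.7% for lrwd1, 60.9% for supt3h, 75.0% and 62.1% for hsf1 and 85.5% for slc22a31. No recorded hybridisation date held both groups. Uninjected wild type was on fluidics stations 1 and 3 and injected wild-type replicate 3 on station 2. The other injected wild-type arrays had no station recorded. Injection and hybridisation date therefore cannot be told apart here, also within a scan day. Wild-type replicate 1 was scanned on a day of its own, and within the day that held the other arrays the log2 differences were -1.31 and -1.21 for lrwd1, -0.70 for supt3h, -0.40 and -0.56 for hsf1 and -0.18 for slc22a31. Of the stage markers, 2 of 14 gastrula genes were higher and 1 was lower in injected wild type, and 3 of 11 cleavage-stage genes were lower. With arrays centred on their medians, 1 gastrula gene was higher and 5 were lower. Their part in the members' differences was not tested.

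**Figure D3:**
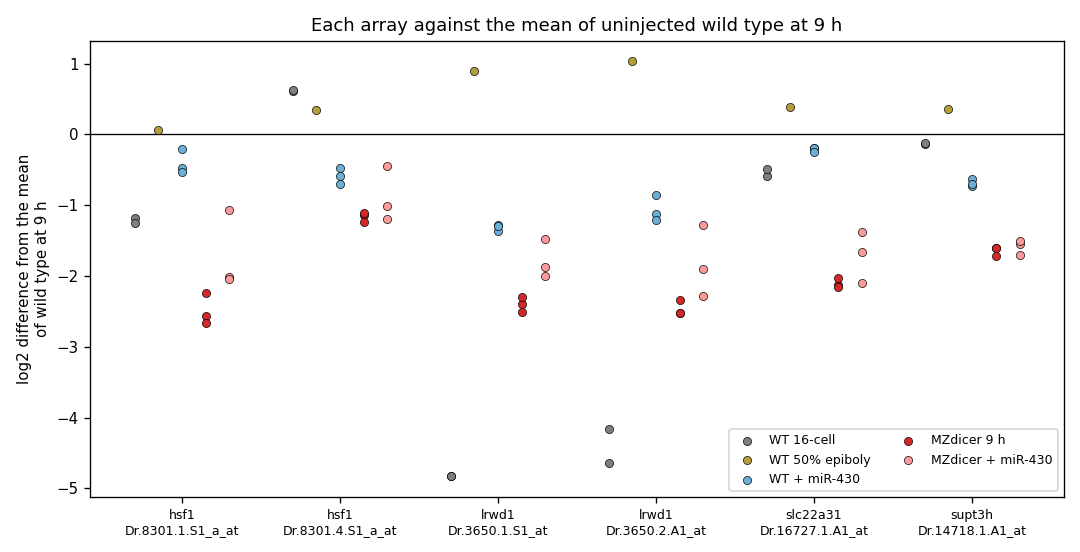
Log2 difference of each array (points) from the mean of uninjected wild type at 9 hours (y axis), for each member probe set (x axis), coloured by group. Mean differences of injected wild type and injected MZdicer were -1.31 and -1.79 on the first lrwd1 probe set and -1.06 and -1.82 on the second. For slc22a31 they were -0.21 and -1.71.

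Set against injected wild type, injected MZdicer was lower on all 6 probe sets by values that differed between the genes. Injected wild type was 2.52 and 1.26 times as high for hsf1, 1.40 and 1.67 times for lrwd1, 2.88 times for slc22a31 and 1.96 times for supt3h. A single recorded hybridisation date held all MZdicer and injected MZdicer arrays together with replicate 3 of injected wild type. Of these, injected MZdicer was on fluidics station 1 and the others were on station 2. Against that single array, injected MZdicer differed on the log2 scale by -1.18 and -0.30 for hsf1, -0.49 and -0.62 for lrwd1, -1.47 for slc22a31 and -0.89 for supt3h. The same array was above uninjected MZdicer by margins that gave -1.96 and -0.57 for hsf1, -1.10 and -1.25 for lrwd1, -1.86 for slc22a31 and -0.94 for supt3h. These are differences of means, and on the second hsf1 probe set injected MZdicer replicate 1, at 83.3, was above the 74.0 of the injected wild-type array. No test was made, because injected MZdicer was used to choose the genes. On 3 probe sets, the first of hsf1 and both of lrwd1, all injected wild-type arrays were below wild type and all injected MZdicer arrays above MZdicer, which 3.63% of all probe sets showed. Because injected against uninjected MZdicer took part in choosing the members, nothing is read from that share. The GAPDH 3′ to 5′ ratio, given above, also moved in opposite directions on injection in the 2 genotypes, and its part was not tested.

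Between the 16-cell stage and 9 hours, only lrwd1 was called in the same direction on all its probe sets under every alternative. In wild type lrwd1 was far higher at 9 hours on the first probe set (16-cell minus 9 hours, log2 -4.83 ± 0.15, limma adjusted p = 4.02e-14) and on the second (log2 -4.40 ± 0.23, limma adjusted p = 5.25e-11). The 16-cell values were close to the bottom of the scale, so the size of the difference depends on the scaling and the pseudocount. It ran from -5.56 to -3.52 and from -4.93 to -3.33 over the alternatives, and no fold is given. The ends at -3.52 and -3.33 were against injected wild type, which is another reference group and not another processing. With a pseudocount of 64 the differences were -3.69 and -3.46. The 16-cell arrays were the lowest of all 15 on both lrwd1 probe sets. For slc22a31 the log2 difference was -0.54 ± 0.16 (limma adjusted p = 0.00683), which did not pass the test without 16-cell replicate 1 (-0.48, adjusted p = 0.0630) or on deposited intensities (-0.21, adjusted p = 0.259). For supt3h it was -0.12 ± 0.09 (limma adjusted p = 0.225), and the sign turned to 0.35 (adjusted p = 0.00152) when arrays were centred on their medians. The hsf1 probe sets disagreed, at -1.21 ± 0.22 (limma adjusted p = 0.000115) on the first and 0.62 ± 0.17 (limma adjusted p = 0.00307) on the second, so no direction can be given for the gene.

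In this comparison 4 of the 6 probe sets were called lower at 16 cells and 1 higher, where 35.6% and 40% of all probe sets were. It shares the wild-type arrays with the contrasts that chose the members, so the 16-cell arrays were also set against injected wild type, which had no part in that choice. Log2 differences were then -3.52 and -3.33 for lrwd1, -0.81 and 1.21 for hsf1, 0.56 for supt3h and -0.33 for slc22a31, with limma adjusted p of 2.15e-12, 1.74e-09, 0.00351, 5.86e-06, 2.90e-05 and 0.0757. Both early stages were scanned on a day of their own, so stage and day cannot be told apart. Within that day the single 50% epiboly array was far above both 16-cell arrays for lrwd1. It was 2.55 and 0.814 times the 16-cell mean for hsf1, 1.93 times for slc22a31 and 1.41 times for supt3h. The same array was above all 3 wild-type arrays at 9 hours on 6 of 6 probe sets, where 32.8% of all probe sets were, by 1.05 and 1.31 times for hsf1, 1.86 and 2.04 times for lrwd1, 1.31 times for slc22a31 and 1.29 times for supt3h.

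The stage labels were checked with marker lists. All 11 measured maternal or cleavage-stage genes were higher at 16 cells than at 9 hours and all 14 gastrula genes were lower, with median log2 differences of 5.32 and -5.77. The maternal germ plasm gene buc differed by 6.60 and tbxta by -5.66 on that scale. In MZdicer, 3 of the 14 gastrula genes were higher than in wild type and 5 lower, and 1 of the 11 cleavage-stage genes was higher and 3 lower. Of all probe sets, 22.3% were called higher and 25% lower there. Median centring gave 1 higher and 9 lower gastrula genes, and on deposited intensities the 3 lower calls of cleavage-stage genes were lost. The mesoderm gene tbxta, named for its place in the list, was among the lower ones, while 3 gastrula genes were higher. Its mean was 2423 in MZdicer and 2920 in wild type (log2 -0.27, limma adjusted p = 0.0148). The part of these stage markers in the members' values was not tested.

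Genes that work with each member were then counted. Of 43 measured chaperone and heat shock genes, 11 were higher and 11 lower in MZdicer than in wild type, where 22.3% and 25% of all probe sets were, and the median log2 difference was -0.03 against -0.07 over all probe sets. The Hsp90 co-chaperone fkbp4 was higher (log2 1.81, limma adjusted p = 1.53e-10) and the endoplasmic reticulum chaperone hspa5 was lower (log2 -0.95, limma adjusted p = 1.00e-07). Injected wild type had 4 of the 43 higher and 3 lower, where 7.3% and 6.74% of all probe sets were. Among the higher ones was hsp90aa1.2, a cytosolic Hsp90, at log2 1.59 (limma adjusted p = 0.00139). Its injected wild-type arrays were spread widely, with a mean of 457 and an SD of 214. Against wild type the same gene was called lower in MZdicer (log2 -1.37) and differed by log2 0.08 in injected MZdicer. With arrays centred on their medians, 6 in place of 11 were higher in MZdicer, and 6 in place of 3 were lower in injected wild type. Over the alternatives with all arrays kept, the counts in MZdicer ran from 6 to 11 higher and from 9 to 16 lower.

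Of 28 replication licensing genes, the group in which lrwd1 acts, 13 were higher and 6 lower in MZdicer, where 22.3% and 25% of all probe sets were. Their median log2 difference was 0.20, against -0.07 over all probe sets. The helicase subunit gene mcm2 rose (log2 1.40, limma adjusted p = 1.23e-06) and the loading factor gene cdc6 fell (log2 -1.0, limma adjusted p = 1.45e-07). At 16 cells 21 of the 28 were higher than at 9 hours and 4 were lower, where 40% and 35.6% of all probe sets were. The median was 1.12, against 0.08 over all probe sets, while lrwd1 was lower on both probe sets. Among the 4 lower list genes was mcm3 (log2 -4.40, limma adjusted p = 4.21e-18). Of 20 genes of SAGA and associated factors, 6 were higher and 5 lower in MZdicer, where again 22.3% and 25% of all probe sets were. The subunit gene taf10 was lower (log2 -0.46, limma adjusted p = 2.87e-06) and atxn7l2b, a relative of the ataxin-7 subunit, was higher (log2 1.07, limma adjusted p = 1.12e-05). In injected wild type, in which supt3h was lower, 2 of the 20 were higher and 4 lower, where 7.3% and 6.74% of all probe sets were. The TATA-binding protein gene tbp was among the lower ones (log2 -0.33, limma adjusted p = 0.0131), and on deposited intensities 1 in place of 4 was lower.

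Only 2 further SLC22 genes were measured. In MZdicer, where 25% of all probe sets were called lower, slc22a2 was lower (log2 -0.82, limma adjusted p = 0.00533). So was slc22a7b.1 (log2 -0.41, limma adjusted p = 0.0424). Neither was called in injected MZdicer or injected wild type against wild type. Means were 107 in MZdicer against 194 in wild type for slc22a2, and 233 against 319 for slc22a7b.1, whose arrays overlapped. Of these 2 calls 1 was lost on leaving out any MZdicer array, any injected wild-type array or wild-type replicate 2 or 3. It was also lost on deposited intensities, with no variance trend and with hybridisation date as a random block.

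**Figure D4:**
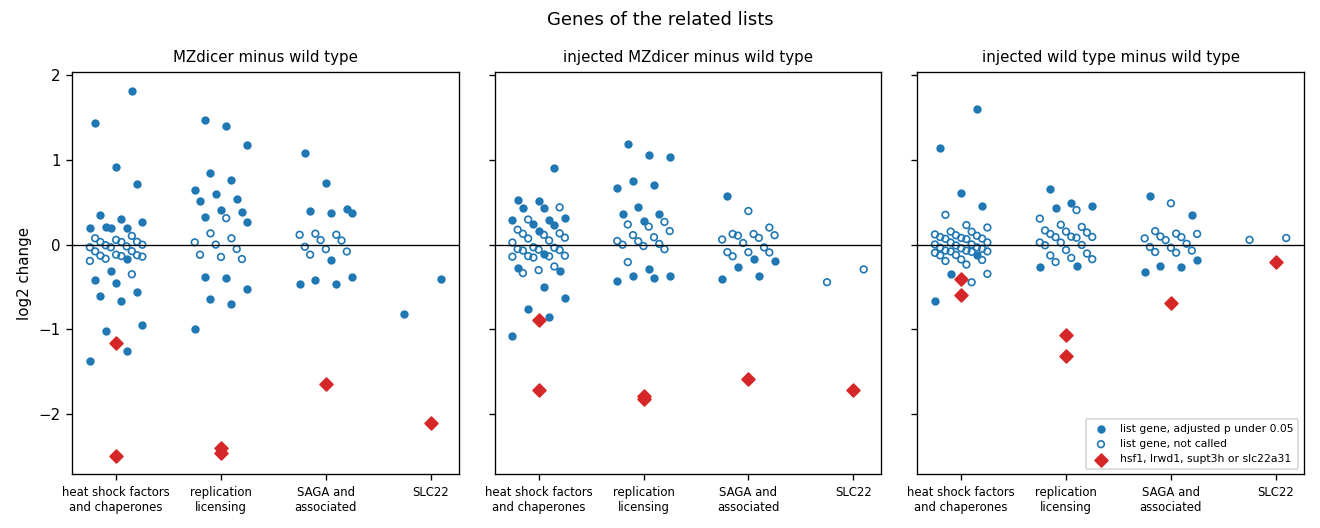
Log2 change (y axis) of each measured gene of the related lists (x axis) in MZdicer, injected MZdicer and injected wild type, each against uninjected wild type. Filled circles passed an adjusted p of 0.05, open circles did not, and red diamonds are the member probe sets, which were drawn beside their list with no test. In MZdicer 11 chaperone genes were called above 0 and 11 below it.

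The genes whose pattern over the 15 arrays was most like each member were found by Pearson correlation of log2 values, as a description over arrays that share the same groups. Each member was represented by its probe set of highest mean, the first for hsf1 and the second for lrwd1. For hsf1 they were cpeb4a (r = 0.957), which encodes a cytoplasmic polyadenylation element binding protein, prps1b (r = 0.952), a phosphoribosyl pyrophosphate synthetase gene, and chpf2 (r = 0.947). For lrwd1 they were ndr2 (r = 0.972), a Nodal ligand, the kinase gene nuak2 (r = 0.970) and the RNA helicase gene ddx17 (r = 0.969). For slc22a31 they were tia1l (r = 0.958), vdac3 (r = 0.942), which encodes a mitochondrial porin, and gid8b (r = 0.942). The gene most like supt3h was also gid8b (r = 0.979), a subunit gene of a ubiquitin ligase, followed by szrd1 (r = 0.960) and csnk2a1 (r = 0.959), a catalytic subunit of casein kinase. Mean gid8b was 1114 in wild type, 742 in injected wild type, 415 in injected MZdicer and 367 in MZdicer.

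Correlations between members over the 15 arrays were highest for slc22a31 and supt3h (r = 0.915) and lowest for lrwd1 and supt3h (r = 0.358). Over the 12 arrays without the early stages they ran from 0.864, for lrwd1 and slc22a31, to 0.943, for hsf1 and lrwd1. The same probe sets were used here, so the hsf1 values hold only for the first of a pair that correlated at r = 0.659. Because the genes were chosen for a shared difference between these groups, such correlations describe the choice.

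In the gene order of the GRCz12tu assembly, supt3h is on the same chromosome as dicer1, with 233 coding genes between them, and the other 3 genes are on other chromosomes. Of the 74 measured genes in that stretch, 16 were lower and 19 higher in MZdicer, where 25% and 22.3% of all probe sets were. Their median log2 difference was -0.05, against -0.07 over all probe sets. The count at or below supt3h was 0. Because supt3h was chosen for its low value in this contrast, nothing is read from that count. The part of chromosomal position was not tested. The 24 measured genes nearest to the members, 3 on each side, were called in MZdicer in 45.8% of cases, 5 lower and 6 higher, where 47.3% of all probe sets were. This look-up was added after the data were seen.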

How the data were processed

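The deposited values were intensities on a linear scale, 1 per probe set and array. Summarisation, background correction and scaling by the authors are not given in the sources used here, and 44 to 285 deposited values per array lay below 0. Per the labels' protocols, oligo(dT)-primed cDNA was made from 2 µg of total RNA. The deposited scanner records were used only for batch fields (unit other): hybridisation date, fluidics station and scan day.

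Groups were taken from the labels. Intensities were quantile normalised over all 15 arrays, negative values became 0, and the analysis ran on log2(intensity + 16). Leaving out 115 controls of 15617 probe sets left 15502, all of them tested. The platform annotation, which can be old, gave 1 symbol to 10795 probe sets, several to 135 and none to 4572, and Entrez identifiers of 10711 matched the RefSeq gene table. Linear models were fitted with limma 3.58.1 under R 4.3.3 (eBayes with trend), p-values were adjusted by Benjamini-Hochberg over all 15502 probe sets and a call was made at an adjusted p under 0.05. The 12 arrays from uninjected 9-hour and from injected embryos shared 1 fit with 8 residual degrees of freedom, and comparisons with the 16-cell stage used all 15 arrays with 9. The fits were tested on simulated data. Precision is limited by the number of arrays.

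The members, gene lists and tests were chosen with earlier results of these data known. All members are named. From each list, represented by the probe set of highest mean, up to 4 genes of smallest p per comparison could be named, and stage markers by their order in the list. The 3 genes most like each member were taken among single-symbol genes above the median level, clone-type names left out. Alternatives were deposited intensities, median centring, pseudocounts of 1 and 64, a filter on the dimmest 40% of probe sets, no trend and a replicate block. Further ones were scan day, hybridisation date, only the arrays compared, and each array left out.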

Additional observations from a re-analysis of the deposited data

Results flagged for a closer look

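Injection went with opposite movements in the 2 genotypes on 3 probe sets. On the first hsf1 probe set and on both lrwd1 probe sets, every injected wild-type array was below every uninjected wild-type array, and every injected MZdicer array was above every uninjected MZdicer array. The log2 change on injection was -0.41 in wild type and 0.78 in MZdicer for hsf1, which differ by 1.19. The wild-type change for hsf1 did not pass the test (limma adjusted p = 0.246). For lrwd1 it was -1.31 and 0.61 on the first probe set, which differ by 1.92, and -1.06 and 0.64 on the second, which differ by 1.70. Without injected MZdicer replicate 1 the MZdicer changes were 0.46 for hsf1 and 0.46 and 0.36 for lrwd1. In MZdicer, injection and fluidics station cannot be told apart, and in wild type injection and hybridisation date cannot. The difference between the genotypes was not tested, because the uninjected wild-type arrays and both MZdicer groups took part in choosing the members. The same arrangement of arrays was found on 3.63% of all probe sets, and for the same reason nothing is read from that share. The GAPDH 3′ to 5′ control ratio was 0.146 to 0.177 in wild type, 0.186 to 0.227 in injected wild type, 0.184 to 0.209 in MZdicer and 0.134 to 0.167 in injected MZdicer. It too moved in opposite directions with no overlap, and its part in these changes was not tested.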

How the results depend on the processing

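In injected against uninjected wild type, the lower calls of lrwd1 and supt3h held under all alternatives that could be run. All of these kept uninjected wild-type arrays, which took part in choosing the members, so they cannot remove the effect of that choice. For the second hsf1 probe set the log2 difference was -0.56 (adjusted p = 0.0657) with scan day as a term and ranged from -0.65 to -0.53 with 1 array left out. For the first hsf1 probe set it was -0.41 (adjusted p = 0.0247) with only the arrays compared, and -0.50 to -0.34 with 1 array left out (adjusted p 0.0267 to 0.454). The second hsf1 probe set has no value without the dimmest 40% of probe sets. At the 16-cell stage slc22a31 was no longer called on deposited intensities (-0.21), with median centring (-0.077) and against injected wild type (-0.33), and ranged from -0.67 to -0.43 with 1 array left out. The sign of supt3h reversed with median centring (0.35) and was also positive against injected wild type (0.56). Setting the 16-cell arrays against injected wild type changes the reference group and not the processing. Injected wild type itself differed from uninjected wild type by log2 -0.68 for supt3h and -0.21 for slc22a31, and its age is not stated. Against uninjected wild type, the median change of all probe sets at the 16-cell stage was 0.08. It was -0.15 on deposited intensities and -0.02 with median centring. The cause of the changes with processing was not tested.

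Called probe sets in injected against uninjected wild type were 2177, and 1338 to 2889 with 1 array left out, the fewest without wild-type replicate 3. For injected MZdicer against injected wild type they were 3234, and 2135 with only the arrays compared. The share of calls that were higher, 47.1% in MZdicer against wild type, was 65.0% on deposited intensities. For injected MZdicer it went from 52.3% to 68.9% against wild type and from 54.9% to 71.0% against injected wild type.

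Same-numbered arrays did not regularly deviate together (r from -0.23 to 0.26), so the samples were not treated as paired. This check cannot show that they are unpaired. With a replicate block, injected wild type differed by -1.31 and -1.06 for lrwd1 and by -0.68 for supt3h, 1935 probe sets were called, and no call of a member changed. At the 16-cell stage, scan day as a term could adjust only for the day of wild-type replicate 1. Low signal limits the second hsf1 probe set, and both lrwd1 probe sets at 16 cells.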
